A study of Rattus norvegicus with 24 samples.

Results

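The response of brown adipose tissue to a day without food was set against the response of the liver in the same feeding experiment, gene by gene, over 16 of the 24 arrays of the series. The quantity compared is the fasting effect in brown adipose tissue (BAT, fasted minus fed) minus the fasting effect in liver (fasted minus fed), so that a positive difference means that a gene went further up, or less far down, in BAT. All animals were male Wistar rats, an outbred laboratory strain, labelled as 8 weeks old when sampled, and the labels name no mutation or drug. From 7 weeks of age they were given food between hour 10 and hour 16 only, on 7 consecutive days, and drank freely. On day 8 the fasted rats received no food, which made 24 h without feeding, the fed rats ate as before, and interscapular BAT and liver were taken from both at hour 16. The 4 groups of 4 arrays are fasted BAT and fasted liver (animals 6, 8, 9 and 10), and fed BAT and fed liver (animals 1, 2, 4 and 5). White adipose arrays of the same animals make up the rest of the series and do not enter the comparison.

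Brown adipose tissue burns fatty acids to make heat through the uncoupling protein Ucp1, takes up much lipid and glucose after a meal, and makes fatty acids of its own. The liver stores and releases glucose, turns surplus carbohydrate into fat in the fed state, and in fasting oxidises fatty acids to ketone bodies and makes glucose from amino acids and glycerol. Both tissues respond to falling insulin, but liver also meets glucagon and the fatty acids that adipose tissue releases, and BAT is governed by sympathetic nerves.

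The labelled tissues matched their markers. Ucp1 ran from 9631 to 10410 on the fasted BAT arrays and from 9650 to 12360 on the fed BAT arrays, and stayed under 7 on all 8 liver arrays. The mean log2 level of 11 hepatocyte markers lay between 4.17 and 4.53 in fasted BAT and between 3.91 and 4.42 in fed BAT, against 12.4 to 12.8 in fasted liver and 12.3 to 12.6 in fed liver. Values are scaled signals in arbitrary units throughout. The ratio of 3′ to 5′ actin signal, a sign of RNA integrity, was 0.97 ± 0.09 on the log2 scale in fasted BAT, 1.46 ± 0.47 in fed BAT, 1.81 ± 0.17 in fasted liver and 1.64 ± 0.33 in fed liver (SD, n = 4 each), and its part in the results was not tested. In fed BAT that ratio was split by scan day. It was 1.93 and 1.80 in animals 1 and 4 (scan day 2), and 1.05 and 1.07 in animals 2 and 5 (scan day 1). In fasted BAT it ran from 0.85 to 1.07. Correlations between arrays of a group ran from 0.943 to 0.979.

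Skeletal muscle transcripts set the BAT arrays apart before any other result. The mean log2 level of 19 muscle markers was 11.86, 11.92, 11.57 and 11.33 in fasted BAT (animals 6, 8, 9 and 10), against 6.46, 5.11, 4.32 and 10.94 in fed BAT (animals 1, 2, 4 and 5). Their summed signal ran from 66640 to 87690 in fasted BAT and from 5192 to 55600 in fed BAT, and from 2410 to 3177 in fasted liver and 2081 to 2546 in fed liver. Thus all fasted BAT samples and the fed BAT sample of animal 5 held much muscle RNA, while the other fed BAT samples and all livers held little. Of the 19 markers, 16 were called higher in the difference and none lower. The 3 largest differences were those of Mybpc1, a myosin-binding protein of the thick filament (7.30 ± 1.67), Atp2a1, the calcium pump of fast fibres (6.71 ± 1.81), and Myh4, a fast myosin heavy chain (6.26 ± 1.91). Atp2a1 lost its call without fed BAT 2 (difference 6.15), and Myh4 lost it on leaving out any 1 of 14 arrays (differences of 5.04 to 6.52). Smooth muscle markers also stood higher in BAT after fasting, at a mean log2 level of 8.56 to 8.84 in fasted BAT and 7.66 to 8.38 in fed BAT over 8 genes. Schwann and nerve markers were lower, at 9.28 to 9.76 in fasted BAT and 9.98 to 10.19 in fed BAT over 3 genes, and so, narrowly, were 5 brown adipocyte markers, at 9.88 to 10.19 in fasted BAT and 10.19 to 10.3 in fed BAT. In liver 11 macrophage markers were higher, at 8.37 to 8.67 in fasted liver and 7.86 to 8.30 in fed liver. The other marker lists overlapped between feeding states in both tissues, and the part of these markers in the results was not tested. In whole tissue, fewer cells of a type and less RNA per cell cannot be told apart. A fit with that muscle level as a covariate is therefore given beside many of the genes that changed in BAT. Of the named genes, 30 of 61 called higher and 28 of 61 called lower were also called in that fit. Among all genes called in the difference the count was 202 of 1170 (17.3%). The named genes, chosen in part for large differences, therefore do not stand for the rest. Because the muscle level correlated with fasting over the 8 BAT arrays (r = 0.807), the covariate also takes away part of the fasting contrast.

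Of 10442 genes tested, 1170 were called in the difference (11.2%, limma, adjusted p under 0.05), 608 higher in BAT than in liver (5.82%) and 562 lower (5.38%), and 636 of them differed at least 2-fold. The median difference over all genes was -0.02, with a median effect of 0.01 in BAT and 0.03 in liver. Fasting itself changed 2486 genes in BAT (23.8%) and 2017 in liver (19.3%). The 817 genes called in both tissues made up 32.9% of the BAT calls and 40.5% of the liver calls, and 734 of them moved the same way. Across genes, which are not independent replicates, the effects in BAT and liver had a correlation of 0.265.

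The 1170 genes fell into 5 kinds. In 83 (0.795% of the genes tested) fasting had called effects of opposite sign, with 40 up in BAT and down in liver and 43 the other way. In 85 both effects were called the same way but unequal: 39 rose in both, 20 of them further in BAT, and 46 fell in both, 21 of them further in BAT. The effect was called in BAT alone for 586 genes (331 rose, 255 fell) and in liver alone for 355 (192 rose, 163 fell). In the last 61 the difference was called although neither effect was. Both tissues reached a group mean of 100 for 728 of the 1170 genes, and the others stayed below it in BAT, in liver or in both. All 1170 had the same sign on each of the 2 scan days of each tissue, both of which held 2 fasted and 2 fed animals. With days balanced in this way, each main difference is the mean of its 2 day differences. Equal signs were therefore likely once a gene was called and are not independent support. With the muscle covariate 221 genes were called, 202 of them among the 1170, and 1159 of the 1170 kept their sign. Without fed BAT 5 there were 1095 calls, 998 of them among the 1170.

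**Figure D1:**
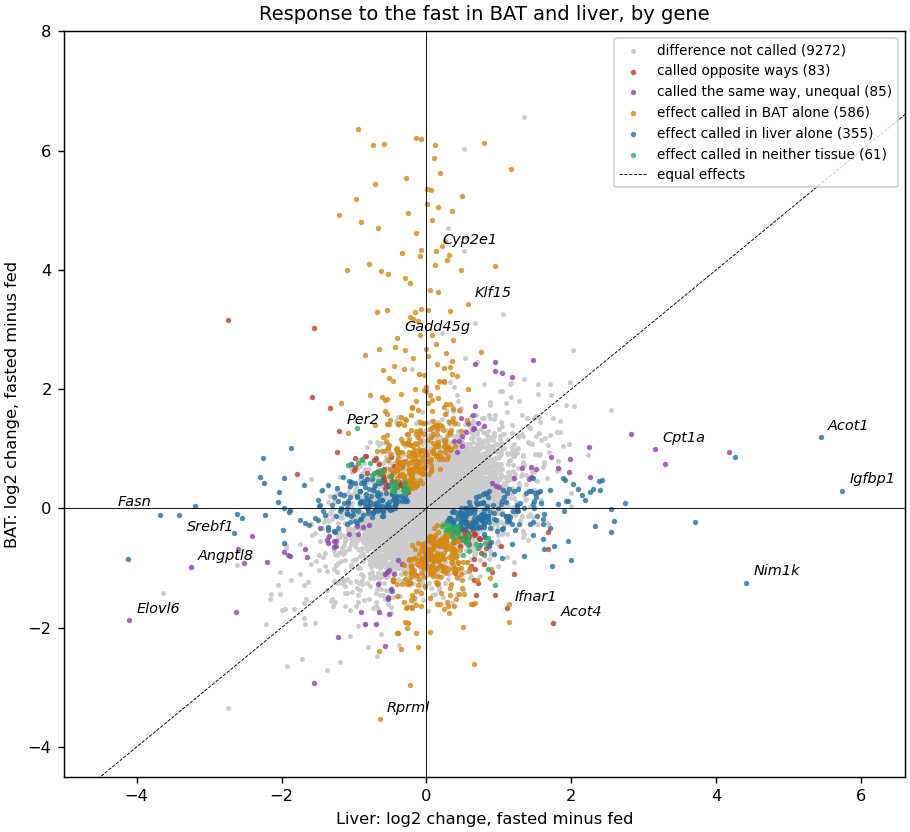
Log2 fasting effect (fasted minus fed) in BAT, on the vertical axis, against that in liver, on the horizontal axis, for the 10442 genes tested. Grey points were not called in the difference; colours mark the 83 genes called opposite ways, 85 called the same way but unequal, 586 with an effect in BAT alone, 355 in liver alone and 61 in neither, and the dashed line marks equal effects. Mybpc1 and other muscle transcripts lie above a BAT effect of 4, near no effect in liver, as does Cyp2e1.

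Per2, a repressor of the circadian clock, led the genes that rose in BAT and fell in liver once those that were dim in all groups, overlapped between feeding states or followed the muscle markers had been set aside. Among those set aside, 4 had larger differences and were named after their values were seen: Stac3 (5.90) and Smtnl2 (4.58) followed the muscle markers, Ddc (3.44) overlapped between feeding states in BAT, and Arc (3.02) did so in liver. For Per2 the signal was 309.5, 518, 421 and 409.6 in fasted BAT, against 136, 175, 165 and 194 in fed BAT, and 354, 444, 384 and 421 in fasted liver, against 861, 948, 994 and 891 in fed liver. Fasted arrays lay above all fed ones in BAT and below all fed ones in liver, and the fasted tissues reached a similar level on this probe set (414 ± 85.1 in BAT and 401 ± 39.8 in liver, mean ± SD, n = 4 each). The effects were 1.29 ± 0.14 and -1.20 ± 0.14 (SE), and the difference was 2.49 ± 0.20 (adjusted p = 1.16e-06), with 2.35 under the muscle covariate (adjusted p = 0.00036).

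The promoter of Per2 is shown because the clock and its outputs act through short sites in this kind of sequence. It is taken from RefSeq on the GRCr8 rat assembly, as are the other promoters printed here, and covers the 250 bases before the transcription start and the first 50 after it, at chr9:99496944-99497243 on the minus strand. Capitals mark a D-box (TTATGTAA), the site of Dbp-type clock output factors, 192 to 185 bases before the start, and an E′-box (CACGTT), a variant of the site of the Clock and Bmal1 pair, 62 to 57 bases before it.
Per2: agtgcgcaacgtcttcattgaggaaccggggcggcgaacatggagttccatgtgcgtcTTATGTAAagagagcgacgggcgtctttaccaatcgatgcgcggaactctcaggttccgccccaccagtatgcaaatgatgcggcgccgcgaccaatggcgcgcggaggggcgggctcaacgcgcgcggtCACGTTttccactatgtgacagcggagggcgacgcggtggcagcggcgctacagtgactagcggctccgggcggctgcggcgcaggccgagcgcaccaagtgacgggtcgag
Searched on both strands, the D-box occurs in 0.881% and the E′-box in 4.93% of the 27457 rat promoters of this length, and in 0.503% and 5.69% of the 8740 found for the genes tested. Among the 67 promoters found for the 83 genes called opposite ways, 1.49% held the D-box, which is Per2 alone, and 4.48% the E′-box. An E-box (CACGTG) was in 6 of the 67 (8.96%), against 9.62% of genes tested and 6.65% of all promoters. A forkhead site (TGTTTAC) was in 2 (2.99%), against 2.52% and 3.76%. The insulin response sequence (CAAAACA) was in 4 (5.97%), against 4.08% and 6.2%, and the cAMP response element (TGACGTCA) in 1 (1.49%), against 3.16% and 1.91%. A match describes the letters and not a bound site.

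The other genes up in BAT and down in liver span membrane traffic, lipid cleavage and mitochondria. Snx21, a sorting nexin of endosomal traffic, had 179, 172, 187 and 189 in fasted BAT, against 112, 73.7, 89.3 and 101 in fed BAT, and 71.6, 67.2, 45.2 and 40.3 in fasted liver, against 214, 109.5, 143 and 87.4 in fed liver. Ddhd1, a phospholipase that cleaves phosphatidic acid, had 322, 253, 316 and 288 in fasted BAT, against 169, 176, 155 and 137 in fed BAT, and 42.2, 47.6, 47.6 and 42.6 in fasted liver, against 74.4, 98.0, 102 and 61.0 in fed liver. In both genes the 2 feeding states did not overlap in either tissue, and the differences were 2.19 ± 0.34 (adjusted p = 0.000489) and 1.73 ± 0.22 (adjusted p = 0.000106). Tfb1m, which methylates the small ribosomal RNA of mitochondria, had 391, 266, 218 and 239 in fasted BAT, against 126, 152, 149 and 163 in fed BAT, and 62.1, 65.7, 81.3 and 86.5 in fasted liver, against 120.3, 123, 139 and 147 in fed liver, also without overlap (difference 1.71 ± 0.24, adjusted p = 0.000224). Olr59, an olfactory receptor gene, was dim in BAT, where its lowest fasted value and its highest fed value were both 28.4, and fell in liver to 43.7, 40.3, 38.8 and 45.7, against 156, 178, 148 and 119 in fed liver (difference 2.35 ± 0.26). All 4 kept their call with the muscle covariate, at adjusted p-values of 0.0404 for Snx21, 0.00339 for Ddhd1, 0.023 for Tfb1m and 0.00207 for Olr59.

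Fdft1, the squalene synthase of the cholesterol pathway, rose in BAT, where most of its pathway fell. It had 1025, 903, 864 and 774 in fasted BAT, against 648, 472, 607 and 483 in fed BAT, and 648, 481, 575 and 624 in fasted liver, against 1082, 1204, 856 and 1543 in fed liver, with no overlap in either tissue. The effects were 0.70 ± 0.16 in BAT and -0.98 ± 0.16 in liver, and the difference was 1.68 ± 0.23 (adjusted p = 0.000154, 0.00737 with the covariate). Its second probe set also gave a called difference (1.02), but there the effect in BAT was -0.13, so that the rise in BAT rests on 1 of 2 probe sets.

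**Figure D2:**
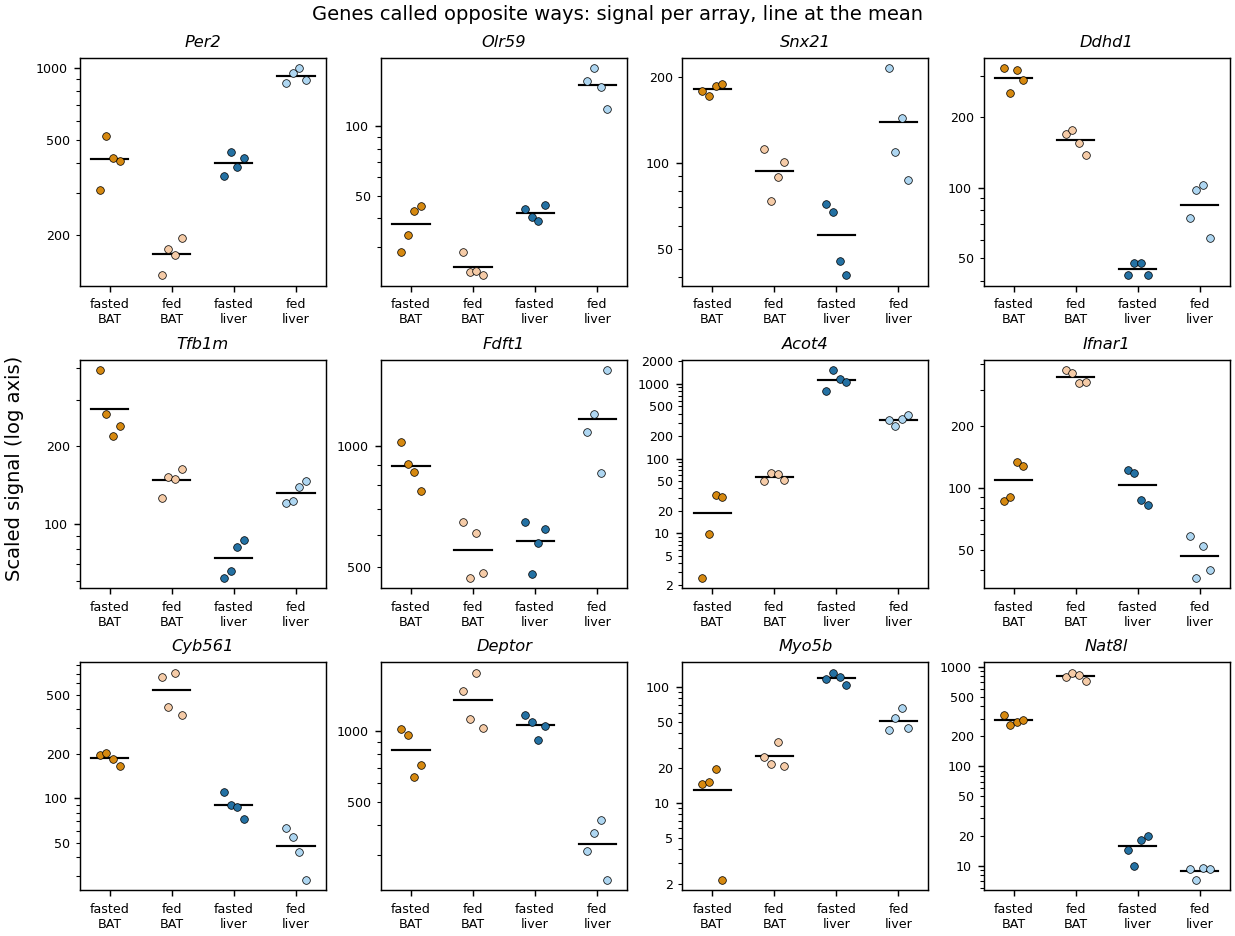
Scaled signal on a log axis on each of the 16 arrays for 12 genes called opposite ways, the 6 each way that met the naming rule, in fasted BAT, fed BAT, fasted liver and fed liver. Points are arrays and lines are group means (n = 4). In Per2 to Fdft1 the fasted BAT points lie above the fed ones and the fasted liver points below; in Acot4 to Nat8l the order is reversed in both tissues.

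The genes that fell in BAT and rose in liver include enzymes, a receptor and a growth regulator. Acot4, a peroxisomal thioesterase for dicarboxylic acyl-CoAs, had 2.55, 9.71, 32.5 and 30.9 in fasted BAT, against 50.9, 64.0, 61.4 and 52.4 in fed BAT, and 802, 1514, 1182 and 1076 in fasted liver, against 333, 275, 342 and 380.0 in fed liver. Its BAT signals were low, and those of animals 6 and 8 lay well below the other fasted ones (difference -3.68 ± 0.64, adjusted p = 0.00118, 0.0677 with the muscle covariate). Deptor, an inhibitor of the mTOR kinase, was bright in both tissues, with 1016, 958, 639 and 718 in fasted BAT, against 1475, 1123, 1766 and 1028 in fed BAT, and 1166, 1088, 919 and 1050 in fasted liver, against 312, 369, 419 and 235 in fed liver. The fasted and fed BAT values came close without overlapping, the liver values were far apart, and both probe sets were called (difference -2.37 ± 0.28, adjusted p = 3.74e-05).

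Ifnar1, a chain of the type I interferon receptor, had 86.0, 90.9, 134 and 128 in fasted BAT, against 373, 362, 326 and 329.7 in fed BAT, and 123, 118, 87.9 and 82.9 in fasted liver, against 58.1, 36.7, 52.0 and 40.1 in fed liver. The feeding states were clearly apart in both tissues (difference -2.79 ± 0.26, adjusted p = 4.03e-06). Of its 5 probe sets 3 were called in this direction, and the other 2 gave -0.19 and -1.50 without passing. Cyb561, an electron carrier of secretory vesicle membranes, had 196, 203, 186 and 166 in fasted BAT, against 665, 414, 711 and 368 in fed BAT, and 110.0, 90.7, 87.1 and 72.8 in fasted liver, against 62.8, 54.8, 43.6 and 28.3 in fed liver (difference -2.41 ± 0.33). Nat8l, which makes N-acetylaspartate and is known from brown adipocytes and neurons, fell to 326, 259.9, 279 and 292 in fasted BAT, against 790.4, 871, 817 and 715 in fed BAT, while its dim liver signal was 14.4, 10.1, 18.3 and 20.0 in fasted and 9.26, 7.27, 9.61 and 9.37 in fed animals (difference -2.14 ± 0.25). In both genes fasted values lay below all fed ones in BAT and above them in liver. Myo5b, a myosin of vesicle recycling, differed by -2.31 ± 0.54 (adjusted p = 0.00988, 0.205 with the covariate) and was dim in BAT, with a mean of 12.8 ± 7.43 in fasted and 25.2 ± 5.64 in fed BAT. With the covariate Deptor, Ifnar1, Cyb561 and Nat8l kept their calls. Counting only the order of the arrays, all fasted ones lay on one side of all fed ones for 28.0% of genes in BAT and 22.4% in liver, and 116 of the 10442 genes (1.11%) had them apart in both tissues in opposite directions.

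Genes of fatty acid synthesis fell much further in liver than in BAT. Of 18 genes tested, 10 were called higher in the difference and 2 lower, with a median difference of 0.90. None rose in either tissue: 10 fell in BAT (median effect -0.58) and 14 in liver (median -1.71). For comparison, 11.9% of all genes fell in BAT and 9.34% in liver, and the difference was called higher for 5.82% and lower for 5.38%.

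Fasn, the fatty acid synthase, had 8910, 9367, 9151 and 8534 in fasted BAT, against 8680, 10050, 10720 and 9311 in fed BAT, and 257, 234, 230.0 and 329 in fasted liver, against 2280, 4182, 3052 and 4240 in fed liver. The BAT groups overlapped and the liver groups were more than 5-fold apart at their nearest values. The effects were -0.10 ± 0.16 in BAT and -3.67 ± 0.16 in liver, and the difference was 3.57 ± 0.23 (adjusted p = 1.23e-07), called on both probe sets. Srebf1, the transcription factor that drives this pathway under insulin, gave the same picture at a much lower BAT signal. It had 1682, 1573, 1628 and 1633 in fasted BAT, against 1653, 1851, 1532 and 2045 in fed BAT, and 378, 224, 197 and 364 in fasted liver, against 2799, 2974, 3407 and 2813 in fed liver (difference 3.30 ± 0.24, adjusted p = 3.35e-07). Thrsp, a lipogenic cofactor, and Acaca, which makes malonyl-CoA, had effects in BAT of -0.06 ± 0.12 and -0.19 ± 0.10 that did not pass the test, and fell in liver (-1.90 ± 0.12 and -1.74 ± 0.10). The second Acaca probe set gave a difference of 0.67 that was not called, and the mean over its probe sets 1.11, also not called.

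Other lipogenic genes fell in both tissues, but further in liver. Elovl6, which lengthens palmitate, had 1355, 1140, 1339 and 1325 in fasted BAT, against 4427, 4636, 5136 and 4771 in fed BAT, and 63.3, 64.7, 82.6 and 109 in fasted liver, against 828, 1939, 1271 and 1730 in fed liver. Its effects were -1.88 ± 0.21 and -4.11 ± 0.21, and they differed by 2.23 ± 0.30 (adjusted p = 0.000128). Acly, which supplies cytosolic acetyl-CoA, fell in both (-0.47 in BAT and -2.41 in liver; difference 1.94 ± 0.19). Angptl8, an insulin-induced hepatokine that restrains lipoprotein lipase, fell in BAT to 985 ± 48.6, against 1969 ± 251 in fed BAT, and in liver to 231 ± 79.6, against 2174 ± 457 in fed liver (mean ± SD, n = 4 each; difference 2.27 ± 0.26, adjusted p = 3.22e-05). Tubb2a, a beta-tubulin with close paralogs, fell in both (-0.68 in BAT and -2.60 in liver). The 2 lower members of the list, Mlxipl, a carbohydrate-sensing transcription factor, and Scd2, a desaturase, were named after their values were seen: they fell in BAT (-1.90 and -2.08), while their liver effects of -0.30 and -0.40 were not called.

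Several of these genes are among the brightest in BAT. Fasn, Thrsp, Tkt and Acly ranked 7, 11, 18 and 37 of the 10442 genes by mean signal in fed BAT. Srebf1 ranked 481 with an effect of -0.11 in BAT, and Agpat2 at rank 39 and Elovl6 at rank 134 fell there. The part of signal compression in the small BAT effects of Fasn, Thrsp and Tkt was not tested. Tkt, transketolase of the pentose phosphate pathway, differed by 1.28 ± 0.16 (adjusted p = 8.15e-05), with a called fall in liver (-1.40) alone. Rpia of the same pathway fell further in BAT (-1.74) than in liver (-0.66). The Rpia difference was not called with its probe sets averaged (-0.52) or with the muscle covariate (adjusted p = 0.0661).

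**Figure D3:**
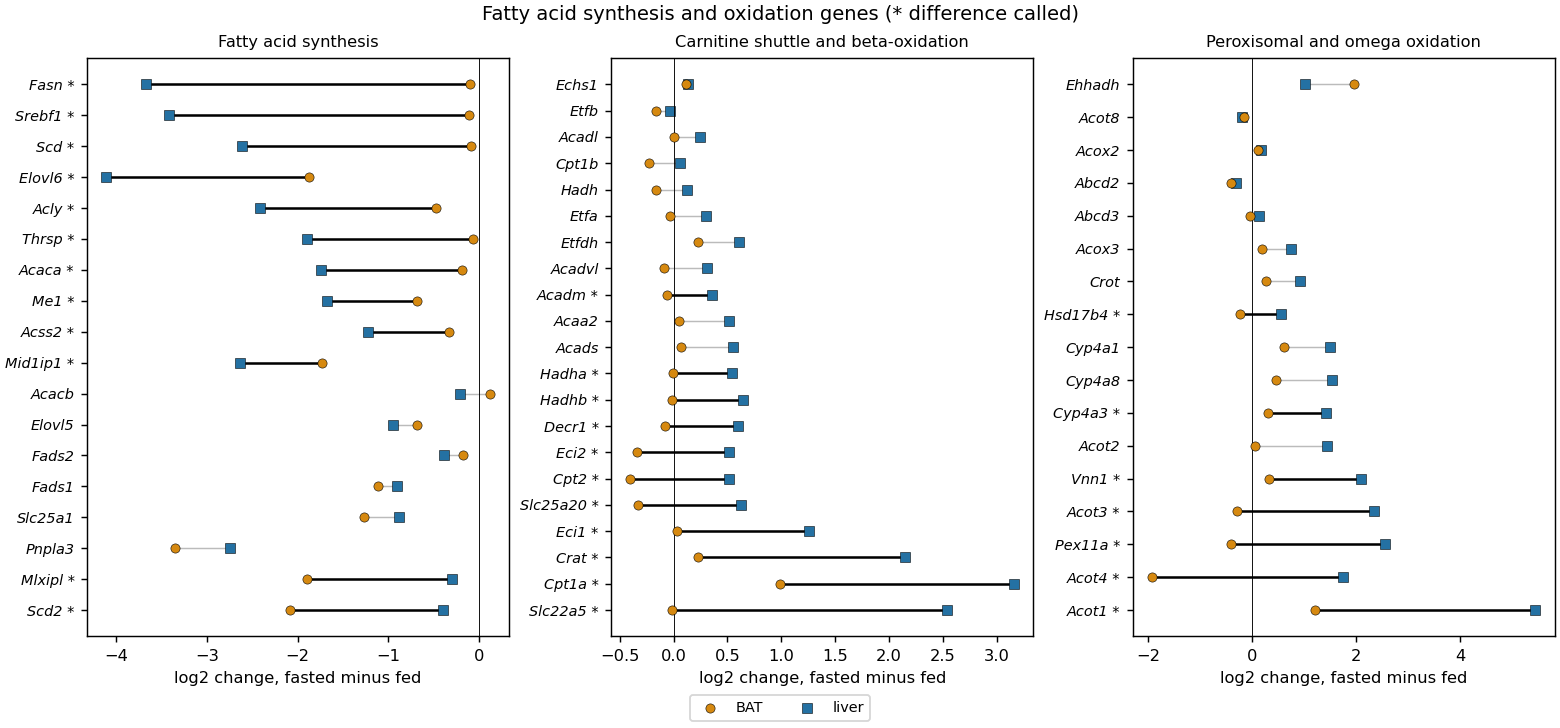
Log2 fasting effect in BAT (orange circles) and liver (blue squares) for every tested member of 3 gene lists, ordered by the difference; black lines and asterisks mark a called difference. In fatty acid synthesis the liver points lie to the left of the BAT points for 10 called genes; in the oxidation lists all 18 called differences have the liver point to the right.

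Fatty acid oxidation showed the reverse. In the carnitine shuttle and mitochondrial beta-oxidation list of 21 genes, 1 rose and 2 fell in BAT (median effect -0.02). In liver 16 rose, against a background of 9.98%, and none fell (median 0.52). The difference was called lower for 11 and higher for none, against 5.38% and 5.82% of all genes, with a median of -0.48. The peroxisomal and omega-oxidation list ran the same way: of 17 genes, 1 rose and 2 fell in BAT (median 0.10), 12 rose and none fell in liver (median 1.41), and 7 differences were called lower and none higher. Among all genes 11.9% rose and 11.9% fell in BAT, and 9.98% rose and 9.34% fell in liver.

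Cpt1a, the liver form of the enzyme that admits long-chain fatty acids to mitochondria, rose in both tissues at very different levels. It had 70.9, 104, 82.8 and 89.6 in fasted BAT, against 49.3, 43.7, 40.9 and 36.9 in fed BAT, and 4093, 4107, 5980 and 5683 in fasted liver, against 790.3, 638, 405 and 432 in fed liver. The groups did not overlap in either tissue, and the effects of 0.99 ± 0.20 and 3.16 ± 0.20 differed by -2.17 ± 0.28 (adjusted p = 9.86e-05). Crat, carnitine acetyltransferase, overlapped between feeding states in BAT, with 1079, 1030, 1482 and 1256 in fasted BAT, against 1046, 1176, 865 and 1031 in fed BAT. In liver it had 548, 668, 552 and 563 in fasted animals, against 125, 129, 139.7 and 127 in fed ones, far apart (difference -1.92 ± 0.17, adjusted p = 2.48e-06). Cpt2, the inner-membrane partner of Cpt1a, went opposite ways. Its values were 1706, 1741, 1813 and 2011 in fasted BAT, against 2262, 2458, 2413 and 2453 in fed BAT, and 2033, 2403, 1789 and 2129 in fasted liver, against 1451, 1335, 1385 and 1676 in fed liver, which is a modest shift without overlap in either tissue (difference -0.91 ± 0.14, adjusted p = 0.000396).

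Among the peroxisomal genes, Pex11a, which promotes peroxisome division, had 544, 485, 544 and 498 in fasted BAT, against 724, 594, 838 and 608 in fed BAT, and 726, 944, 649 and 724 in fasted liver, against 185, 135, 107 and 99.7 in fed liver. The arrays were apart in both tissues and in opposite directions, but the effect in BAT of -0.40 ± 0.17 was not called (adjusted p = 0.1; difference -2.94 ± 0.24, adjusted p = 1.16e-06). Hsd17b4, the multifunctional enzyme of peroxisomal beta-oxidation, fell in BAT (-0.23 ± 0.08) and rose in liver (0.56 ± 0.08). Acot1, a cytosolic thioesterase, was dim in BAT and had 32.4, 749.5, 237 and 128 in fasted liver, against 0.578, 0.992, 1.68 and 7.79 in fed liver, a rise of 5.44 ± 0.79 that varied over 20-fold among the fasted animals (difference -4.24 ± 1.12, adjusted p = 0.0217). Acot1 to Acot4 are close paralogs, and cross-hybridisation between them was not tested. Vnn1, a pantetheinase, had an effect in BAT of 0.33 ± 0.21 that was not called and rose in liver by 2.10 ± 0.21.

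Most genes of cholesterol synthesis fell in both tissues. Of 17 genes 14 fell in BAT (median -1.52) and 14 in liver (median -1.22), and only Fdft1 rose, in BAT. Among all genes 11.9% fell in BAT and 9.34% in liver. The median difference was -0.01, with Fdft1 called higher and 3 genes called lower, against 5.82% and 5.38% of all genes. Of these 3, Nsdhl and Sc5d kept their call whichever array was left out, and the muscle covariate ended both (-0.59 at an adjusted p of 0.325 for Nsdhl and -1.17 at 0.0888 for Sc5d). Scan day 1 alone also ended that of Nsdhl (adjusted p = 0.0813). Nsdhl, which removes methyl groups from sterol precursors, fell to 397, 321, 358 and 345 in fasted BAT, against 1297, 1081, 1387 and 1009 in fed BAT, and to 1299, 1087, 1332 and 1427 in fasted liver, against 2047, 2547, 2109 and 3002 in fed liver (difference -0.83 ± 0.19, adjusted p = 0.00858). Sc5d, a late-step desaturase, fell in BAT (-1.65), and its liver effect of -0.21 ± 0.17 was not called (difference -1.44 ± 0.25). The third, Hsd17b7 (-0.93 ± 0.28), lost its call on leaving out any 1 of 10 arrays (-0.81 to -1.09 over all 16). Insig1, which holds the sterol sensor in the endoplasmic reticulum, had effects of -0.95 ± 0.18 in BAT and -1.05 ± 0.18 in liver and a difference of 0.10 ± 0.25 (adjusted p = 0.858). Its relative Insig2 had -0.15 in BAT and rose in liver (0.80; difference -0.95 ± 0.20, adjusted p = 0.00501).

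Lipid droplet and glyceride genes gave a mixed picture. In the lipolysis list 1 of 19 differences was called higher and 4 lower, and in triglyceride synthesis 1 of 10 higher and 4 lower. The shares over all genes tested were 5.82% higher and 5.38% lower. Pnpla2, the adipose triglyceride lipase, was bright in BAT, with 5817, 5699, 6233 and 5850 in fasted and 4475, 5599, 5765 and 5569 in fed animals, and rose in liver to 551, 725, 535 and 242, against 93.7, 97.0, 128 and 96.0 in fed liver. The BAT groups overlapped and the liver groups did not (difference -2.05 ± 0.32, adjusted p = 0.000544). Plin5, a droplet coat protein of oxidative tissues, had a BAT effect of -0.03 ± 0.20 and rose in liver (1.26 ± 0.20), while Plin3, a coat protein of small droplets, fell in BAT (-0.96 ± 0.14) with a liver effect of 0.19 ± 0.14. Agpat2 and Agpat3, which make phosphatidic acid, fell in BAT, with effects of -0.93 in BAT and -0.33 in liver for Agpat2 and an uncalled liver effect of 0.48 for Agpat3 (difference -1.48 ± 0.29). With the muscle covariate neither difference was called (adjusted p = 0.199 for Agpat2 and 0.0817 for Agpat3). For Agpat3, 3 of 4 probe sets were called this way, the last gave 0.07, and their mean (-1.17) was not called.

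Glucose and glycogen genes changed in both tissues. Of 20 genes of glucose uptake and glycolysis 3 rose and 3 fell in BAT, 1 rose and 7 fell in liver, and 4 differences were called higher and 1 lower. Among all genes 11.9% rose and 11.9% fell in BAT, and 9.98% rose and 9.34% fell in liver. The difference was called higher for 5.82% and lower for 5.38%. Pklr, pyruvate kinase of liver, was dim in BAT and fell to 269, 204, 149.6 and 259 in fasted liver, against 801, 1006, 1398 and 1156 in fed liver (difference 2.83 ± 0.40, adjusted p = 0.000219). Pfkfb1, the bifunctional enzyme that sets fructose 2,6-bisphosphate in liver, had -0.33 ± 0.15 in BAT and rose in liver by 1.06 ± 0.15 (difference -1.39, adjusted p = 0.000532). Of 13 glycogen genes 3 rose and 4 fell in BAT, 5 fell and none rose in liver, and 4 differences were called higher and none lower. Gyg1, the glycogenin primer, went opposite ways, with 1519, 1560, 1001 and 1123 in fasted BAT, against 898, 871, 972 and 880.4 in fed BAT, and 208, 214, 196 and 246 in fasted liver, against 308, 319, 329 and 345 in fed liver (difference 1.09 ± 0.18, adjusted p = 0.000982, 0.0342 with the covariate). Pygl, liver glycogen phosphorylase, fell in both (-0.46 in BAT and -1.34 in liver). The largest glycogen difference, that of Pygm (5.38 ± 1.23), is the muscle phosphorylase, whose level followed the muscle markers on the white adipose arrays and was 1526 in fed BAT 5 against 29.5 to 57.1 on the other fed BAT arrays.

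Of 17 genes of gluconeogenesis and pyruvate control 3 were called lower in the difference and none higher, against 5.38% and 5.82% of all genes. Pck1, which commits oxaloacetate to glucose in liver and to glycerol in adipose tissue, had 3781, 4950, 5230 and 5266 in fasted BAT, against 1515, 1349, 1114 and 1085 in fed BAT, and 6073, 5361, 6201 and 7155 in fasted liver, against 1991, 1841, 2460 and 2277 in fed liver. It rose in both tissues, and the difference of 0.39 ± 0.19 was not called (adjusted p = 0.215). Pdk4, which switches off pyruvate dehydrogenase, also rose in both (1.21 ± 0.27 in BAT and 1.51 ± 0.27 in liver; difference -0.30 ± 0.38, adjusted p = 0.687). Ppargc1a, a coactivator of fasting genes in liver and of thermogenic genes in BAT, had 95.0, 82.0, 96.9 and 103 in fasted BAT, against 158, 143, 160.4 and 144 in fed BAT, and 55.5, 78.5, 65.1 and 49.0 in fasted liver, against 29.3, 5.64, 21.5 and 29.9 in fed liver. The arrays were apart in both tissues and in opposite directions, but only the liver effect was called (-0.68 ± 0.33 in BAT, adjusted p = 0.152; difference -2.31 ± 0.47, adjusted p = 0.00383, 0.0958 with the muscle covariate). Pdp2, a phosphatase that reactivates pyruvate dehydrogenase, fell in BAT and had an uncalled effect of 0.61 ± 0.22 in liver (difference -1.61 ± 0.31, adjusted p = 0.00286, 0.0619 with the covariate). Mpc2, a subunit of the mitochondrial pyruvate carrier, fell in BAT and rose in liver (-0.46 ± 0.10 and 0.54 ± 0.10), as did Aco1, the cytosolic aconitase (-0.49 ± 0.08 and 0.48 ± 0.08).

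Of 23 differences in amino acid breakdown, 2 were called higher and 3 lower, against 5.82% and 5.38% of all genes. Sds, serine dehydratase, stayed under 19 on every BAT array and rose in liver to 1374, 1436, 2275 and 836 in fasted animals, against 67.4, 59.5, 82.2 and 76.5 in fed ones (difference -3.40 ± 0.58, adjusted p = 0.00108). Gpt2, the mitochondrial alanine aminotransferase, had 1.06 ± 0.23 in BAT and -0.52 ± 0.23 in liver (difference 1.58 ± 0.33, adjusted p = 0.00453, 0.43 with the covariate). Got1 and Gpt, the aspartate and alanine aminotransferases, had 0.18 and -0.44 in BAT, where Gpt fell, and rose in liver (1.51 and 0.67). The 8 urea cycle genes and 17 genes of branched-chain amino acid breakdown had no called difference, where 11.2% of all genes had one.

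Of the genes that glucocorticoids induce, more were called up in BAT than in liver. Of 16 tested, 12 rose in BAT (median effect 1.23), against a background of 11.9%. In liver 6 rose (median 0.58), against 9.98%, and none fell in either tissue. The difference was called higher for 6 and lower for 1, against 5.82% and 5.38% of all genes, with a median of 0.67. Of the higher genes described below, Klf15 kept its call with the muscle covariate, and Fkbp5 and Ddit4 lost theirs.

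Klf15, a Krüppel-like factor that glucocorticoids induce and that controls amino acid use, carried the largest difference of that list. It had 859, 759, 918 and 741 in fasted BAT, against 56.9, 98.0, 39.8 and 134 in fed BAT, and 1724, 1813, 1194 and 1263 in fasted liver, against 789, 882, 1575 and 887 in fed liver. BAT samples were far apart and the liver groups overlapped, with fed liver 4 inside the fasted range. The effects were 3.43 ± 0.29 in BAT and 0.57 ± 0.29 in liver, and the difference was 2.86 ± 0.41 (adjusted p = 0.00026), 1.99 with the muscle covariate (adjusted p = 0.0455) and 1.61 on the second probe set. Averaging all of its probe sets, dim ones included, brought the difference to 1.03, which was not called. Its promoter is shown as the gene with the largest difference in the list, and it holds an E-box (CACGTG, in capitals, 101 to 96 bases before the start). An E-box lay in 2 of the 7 promoters of called genes in this list, those of Klf15 and Mt2A, against 9.62% of the promoters of genes tested and 6.65% of all rat promoters. The Klf15 window lies at chr4:124522765-124523064 on the plus strand.
Klf15: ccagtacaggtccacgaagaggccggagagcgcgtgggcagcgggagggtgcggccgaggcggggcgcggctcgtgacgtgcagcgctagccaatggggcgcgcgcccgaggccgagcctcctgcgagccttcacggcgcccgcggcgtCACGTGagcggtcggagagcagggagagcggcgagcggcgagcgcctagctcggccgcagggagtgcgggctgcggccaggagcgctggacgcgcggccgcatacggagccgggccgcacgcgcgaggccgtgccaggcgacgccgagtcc
Fkbp5, which binds Hsp90 in the glucocorticoid receptor complex, rose in both tissues and further in BAT, with 572, 534, 692 and 569 in fasted BAT, against 78.8, 120.4, 112 and 117 in fed BAT, and 140.3, 232, 227 and 113 in fasted liver, against 71.5, 95.8, 95.0 and 90.4 in fed liver (difference 1.51 ± 0.29, adjusted p = 0.00281, 0.0832 with the covariate). Ddit4, an inhibitor of mTOR complex 1, rose in BAT alone (1.90 ± 0.30; difference 1.86 ± 0.42, 0.90 with the covariate at an adjusted p of 0.451). The lower gene was Mt2A, a metallothionein, with 945, 782, 1023 and 607 in fasted BAT, against 354, 362, 317 and 358 in fed BAT, and 7409, 6413, 6969 and 7444 in fasted liver, against 1107, 706, 1277 and 985 in fed liver (difference -1.58 ± 0.23, adjusted p = 0.00032).

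**Figure D4:**
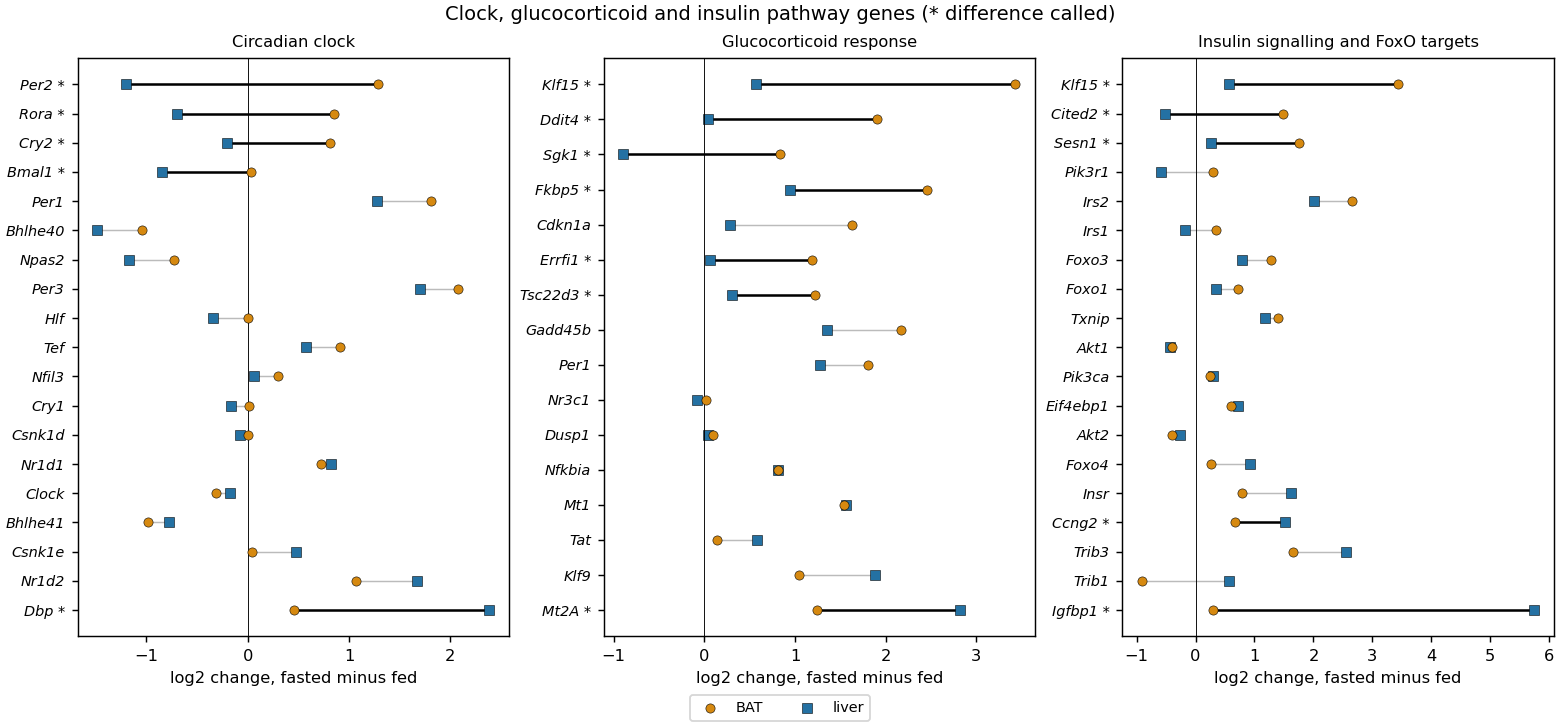
Log2 fasting effect in BAT (orange circles) and liver (blue squares) for every tested member of the clock, glucocorticoid and insulin lists, ordered by the difference; black lines and asterisks mark a called difference. Per2 has its points on opposite sides of 0, Klf15 stands far right in BAT, and Igfbp1 far right in liver.

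In the insulin and FoxO list 10 of 19 genes rose in BAT and 9 in liver, with none falling, and 3 differences were called higher and 2 lower around a median of 0.03. Among all genes tested 11.9% rose in BAT and 9.98% in liver, and the difference was called higher for 5.82% and lower for 5.38%. Irs2, the insulin receptor substrate that FoxO factors induce, rose in both tissues (2.66 ± 0.23 in BAT and 2.02 ± 0.23 in liver), and its difference of 0.65 ± 0.32 was not called (adjusted p = 0.227). Cited2, a coactivator, and Sesn1, a sestrin that restrains mTOR complex 1, rose in BAT alone, with differences of 2.00 ± 0.29 and 1.49 ± 0.21 (adjusted p = 0.000322 and 0.000264; with the covariate, 0.0544 and 0.0231).

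Igfbp1, a binding protein that fasted liver secretes to bind insulin-like growth factors, was dim in BAT, with 8.50, 0.601, 1.33 and 7.26 in fasted and 3.62, 1.31, 3.06 and 1.97 in fed animals. In liver it had 3034, 3466, 5110 and 2713 in fasted animals, against 43.7, 52.4, 181 and 37.9 in fed ones. The liver groups were more than 10-fold apart at their nearest values, and the difference was -5.45 ± 0.68 (adjusted p = 7.6e-05). Its promoter is the classical example of insulin-repressed transcription. It lies at chr14:86261027-86261326 on the plus strand, and the capitals mark an insulin response sequence (CAAAACA), found in 6.2% of rat promoters, 121 to 115 bases before the start.
Igfbp1: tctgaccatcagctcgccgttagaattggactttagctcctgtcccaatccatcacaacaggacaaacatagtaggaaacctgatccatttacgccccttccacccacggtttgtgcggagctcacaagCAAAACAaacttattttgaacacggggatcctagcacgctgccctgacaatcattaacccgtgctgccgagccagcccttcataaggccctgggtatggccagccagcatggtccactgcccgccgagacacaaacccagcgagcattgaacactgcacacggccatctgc
Fgf21, a fasting hormone of liver, was dim, with means of 7.16 ± 2.97 in fasted and 23.5 ± 10.9 in fed BAT, and of 99.5 ± 37.6 in fasted and 69.2 ± 26.6 in fed liver. It fell in BAT (-1.44 ± 0.38), its liver effect of 0.51 ± 0.38 was not called, and the difference (-1.95 ± 0.53, adjusted p = 0.0257) lost its call on leaving out any 1 of 7 arrays (-1.73 to -2.25 over all 16). With the muscle covariate the Fgf21 difference was -0.81 and not called (adjusted p = 0.656).

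The clock list had 4 of 19 differences called higher, those of Per2, Rora, Cry2 and Bmal1, and 1 lower, that of Dbp. In this list 8 genes rose and 1 fell in BAT, and 5 rose and 4 fell in liver. The shares over all genes were 5.82% higher and 5.38% lower. They were 11.9% up and 11.9% down in BAT, and 9.98% up and 9.34% down in liver. Besides Per2, Rora, a nuclear receptor that activates Bmal1, went opposite ways, with 223, 162, 203 and 167 in fasted BAT, against 90.3, 86.2, 132 and 108 in fed BAT, and 212, 200.2, 132 and 191 in fasted liver, against 505, 315, 245 and 194 in fed liver. Its liver groups overlapped (difference 1.55 ± 0.34, adjusted p = 0.00621, 0.126 with the covariate), and with its dimmer probe sets averaged in the difference of 1.43 was not called. Cry2, the partner of Per2 in repression, rose in BAT (0.81 ± 0.17) with a liver effect of -0.21 ± 0.17, on 1 of its 2 probe sets (0.61 for their mean and 0.80 with the covariate, neither called). Dbp, the output factor that binds D-boxes, overlapped in BAT, with 181, 118, 202 and 235 in fasted and 141, 111, 132 and 136 in fed animals, and rose in liver to 189, 256, 270.3 and 279, against 54.3, 31.7, 47.1 and 53.0 in fed liver (difference -1.93 ± 0.29, adjusted p = 0.000449). Per1 had 212, 292, 155 and 182 in fasted BAT, against 36.6, 43.4, 74.7 and 89.0 in fed BAT, and 110.0, 106, 31.9 and 26.8 in fasted liver, against 8.16, 13.3, 38.3 and 54.4 in fed liver. It rose in BAT, the liver groups overlapped, and the difference of 0.53 ± 0.74 was not called (adjusted p = 0.723), with fasted animals 6 and 8 high in liver. The tissues were taken at a single hour, so a change in level and a shift in phase cannot be told apart.

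Chaperone and stress genes changed in both tissues. Of 18 endoplasmic reticulum chaperones 6 were called higher in the difference and none lower, against 5.82% and 5.38% of all genes. In BAT 4 fell and 2 rose, and in liver 8 fell and 2 rose. Among all genes 11.9% fell and 11.9% rose in BAT, and 9.34% fell and 9.98% rose in liver. Creld2, induced by endoplasmic reticulum stress, had -0.20 ± 0.17 in BAT and fell to 420.1, 359, 300.5 and 383 in fasted liver, against 1428, 891, 1152 and 755 in fed liver (difference 1.29 ± 0.24, adjusted p = 0.00209). Centring each array on its median left 1 of the 6 calls. Of 13 cytosolic heat shock genes 8 fell in BAT (median -0.72) and 5 in liver (median -0.28), none rose, and the 2 called differences, those of Hspa1a and Dnajb1, were falls in BAT alone. Dnajb1, an Hsp70 partner, had effects of -1.10 ± 0.23 in BAT and 0.06 ± 0.23 in liver (difference -1.17, adjusted p = 0.0256, 0.353 with the covariate). In the integrated stress list of 18 genes 5 rose and 3 fell in BAT, and 1 rose and 4 fell in liver, with 4 differences called higher and 1 lower. Chac1, which degrades glutathione, rose in BAT alone to 309.9, 424, 136 and 124 in fasted BAT, against 19.0, 49.7, 21.3 and 43.5 in fed BAT, and had 37.4, 24.8, 37.3 and 51.2 in fasted liver, against 54.6, 39.0, 32.1 and 17.7 in fed liver (difference 2.62 ± 0.59, adjusted p = 0.00747). It is among the genes that follow the muscle markers, and the covariate ended its call (adjusted p = 0.261). Shmt2 and Psph, enzymes of serine and glycine synthesis, differed as well: Shmt2 had no called effect in BAT and fell in liver (-1.10), and Psph fell in both (-0.73 in BAT and -1.96 in liver). Sqstm1, the autophagy receptor p62, rose in BAT to 1655, 1752, 1843 and 1673, against 964, 1053, 1111 and 1072 in fed BAT, and fell in liver to 2600, 2612, 2836 and 2539, against 3351, 3421, 2938 and 3709 in fed liver (difference 1.06 ± 0.12, adjusted p = 2.15e-05), and 1 of its 3 probe sets was called, with 0.35 for their mean. Gclc and Gss, which make glutathione, had uncalled effects in BAT (-0.24 and 0.54) and fell in liver (-1.67 and -0.90), and Ephx1, an epoxide hydrolase, rose in BAT (0.85) and fell in liver (-0.48).

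The largest rise called in BAT alone, outside the muscle-following genes, was that of Cyp2e1, the cytochrome P450 that oxidises ethanol and acetone. It had 1314, 709, 1182 and 1307 in fasted BAT, against 51.0, 61.0, 34.3 and 76.5 in fed BAT, and 8501, 8146, 10620 and 10050 in fasted liver, against 8286, 9053, 7024 and 9902 in fed liver. BAT rose by 4.31 ± 0.21, liver stood at 0.13 ± 0.21, and the difference was 4.18 ± 0.30 (adjusted p = 3.35e-07). Its liver signals were as bright as those of Fasn and Thrsp in BAT, and the part of signal compression in the small liver effect was not tested. Fed BAT 5, rich in muscle RNA, had 76.5, the highest of the fed BAT values but far below the fasted ones, and the difference was 3.59 with the muscle covariate (adjusted p = 0.000118). Gadd45g, a growth arrest gene, had the same pattern, with 1138, 1165, 1012 and 699.8 in fasted BAT, against 117, 99.5, 202 and 139 in fed BAT, and 162, 223, 173 and 165 in fasted liver, against 291, 162, 264 and 258 in fed liver (difference 3.26 ± 0.31, 3.30 with the covariate at an adjusted p of 0.000749).

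Cryab and Tmod1 stood apart from these. Cryab, a small heat shock protein of muscle and other tissues, had 1979, 2358, 1202 and 669 in fasted BAT, against 56.2, 104, 106 and 613 in fed BAT, the highest fed value being that of animal 5. Tmod1, which caps actin filaments, had 217, 219, 179 and 113 in fasted BAT, against 13.9, 6.43, 10.5 and 93.5 in fed BAT, again highest in animal 5. Their differences of 3.45 ± 0.73 and 3.36 ± 0.82 became 1.36 and 0.82 with the covariate and were not called then (adjusted p = 0.443 and 0.695). The muscle-following set of 97 genes holds the 19 markers themselves and the genes that followed them on the fasted white adipose arrays. Of the 97, 66 were called higher in the difference and none lower, against 5.82% and 5.38% of all genes. The markers belong to the set by definition, so this count is not independent of theirs.

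**Figure D5:**
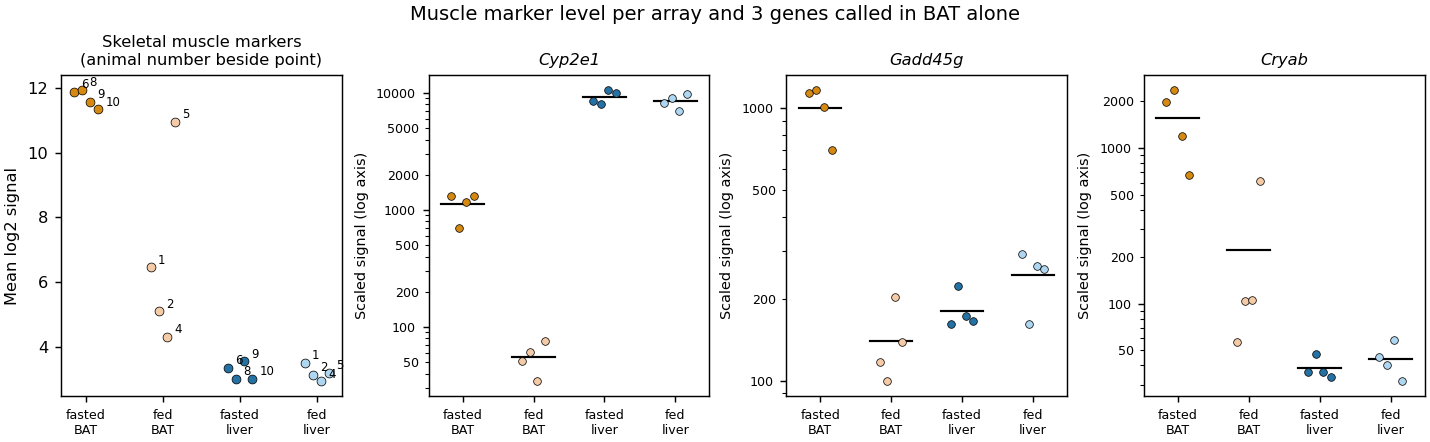
The first panel shows the mean log2 signal of 19 skeletal muscle markers on each array, numbered by animal; the others show the scaled signal of Cyp2e1, Gadd45g and Cryab on a log axis, with points for arrays and lines for group means. Fed BAT 5 is high for the muscle markers (10.94) and for Cryab, and lies near the other fed BAT arrays for Cyp2e1 and Gadd45g.

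Among genes that fell in BAT alone, Rprml and Crocc were nearly silent in liver. Rprml, related to the growth arrest gene Reprimo, had 40.4, 39.8, 38.6 and 31.8 in fasted BAT, against 636, 339.8, 498 and 395 in fed BAT, and no signal above 10 in liver (difference -2.89 ± 0.52, adjusted p = 0.00154, 0.0649 with the covariate). Crocc, the ciliary rootlet protein, had 53.6, 33.7, 13.4 and 53.9 in fasted BAT, against 290.2, 312, 324 and 207 in fed BAT, and no signal above 4 in liver (difference -2.74 ± 0.53, adjusted p = 0.00265, 0.132 with the covariate). Both fell several-fold without overlap. Mro was dim in BAT, with 3.34 ± 4.40 in fasted and 24.3 ± 7.32 in fed animals, against 1134 ± 289 in fasted and 701 ± 65.5 in fed liver, so its difference (-3.27 ± 0.51) rests on dim BAT signals. Hspa1a, the inducible Hsp70, had 143, 253, 199 and 158 in fasted BAT, against 289, 319, 2712 and 907 in fed BAT, where animals 4 and 5 stood far above the others, and 52.6, 153, 98.6 and 59.1 in fasted liver, against 44.4, 30.4, 40.1 and 33.6 in fed liver (difference -3.04 ± 0.73, adjusted p = 0.0122, 0.198 with the covariate). Hsp70 genes are near-identical copies, and cross-hybridisation was not tested. Dixdc1, a Wnt pathway protein, fell in both tissues and further in BAT, to 42.5, 41.2, 31.1 and 41.0 in fasted BAT, against 268, 151, 239 and 160.2 in fed BAT (-2.31 ± 0.19, against -0.57 ± 0.19 in liver).

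Among genes called in liver alone, some rose there by far more than 10-fold. Nim1k, a kinase related to AMPK, had 5.07, 2.44, 5.51 and 20.0 in fasted BAT, against 23.0, 17.2, 19.1 and 13.1 in fed BAT, and 108, 162, 100.3 and 174 in fasted liver, against 1.37, 19.0, 1.05 and 6.41 in fed liver (difference -5.66 ± 0.79, adjusted p = 0.000218). In fed liver 3 of 4 values were under 10, so the size of the fold is poorly fixed. Colq, the collagen tail of acetylcholinesterase, had -0.22 ± 0.22 in BAT and 175, 257, 159.9 and 142 in fasted liver, against 8.54, 11.0, 13.0 and 17.2 in fed liver (difference -3.92 ± 0.32, adjusted p = 1.16e-06). Kcnj15, a potassium channel, fell to 29.8, 12.6, 24.1 and 63.4 in fasted liver, against 619, 622, 346 and 522 in fed liver, and Spc24, a kinetochore protein, to 20.1, 22.5, 16.0 and 20.6, against 150.3, 232, 182 and 228 in fed liver. The Spc24 difference was 3.23 ± 0.66, with 2.51 without fed BAT 5, which stood low at 8.86, and 5.56 with the muscle covariate. Ablim3, an actin-binding protein, rose in both but mostly in liver, with 265, 257, 256 and 263 in fasted BAT, against 169, 150.4, 135 and 165 in fed BAT, and 375, 535, 420.4 and 343 in fasted liver, against 43.8, 34.4, 53.0 and 34.0 in fed liver (difference -2.54 ± 0.22, adjusted p = 1.7e-06).

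Nuclear receptors and xenobiotic genes had calls in both directions in both tissues. Of 19 nuclear receptors of energy metabolism 2 rose and 3 fell in BAT, and 3 rose and 1 fell in liver. Of 18 xenobiotic genes tested 4 rose and 1 fell in BAT, and 4 rose and 2 fell in liver. Among all genes tested 11.9% rose and 11.9% fell in BAT, and 9.98% rose and 9.34% fell in liver. The nuclear receptor counts lie near these shares. Nr0b2, the small heterodimer partner that represses bile acid synthesis, overlapped between feeding states in BAT and rose in liver to 1384, 1167, 416 and 876, against 239, 161, 114 and 96.4 in fed liver (difference -2.80 ± 0.52, adjusted p = 0.00219). Nr1i3, the receptor CAR, was dim in BAT and rose to 928, 892, 807 and 598 in fasted liver, against 143, 212, 235 and 218 in fed liver (difference -2.87 ± 0.57). Por, the reductase that feeds electrons to cytochromes P450, had -0.10 ± 0.14 in BAT and rose in liver by 1.04 ± 0.14. Thrb, a thyroid hormone receptor, fell in BAT (-0.62 ± 0.09) with 0.14 ± 0.09 in liver, and the mean over its probe sets was not called (-0.82).

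Some systems gave no call in the difference. None of 21 respiratory chain genes, 23 proteasome genes and 20 immediate early genes was called in the limma fit, and in the 12 tested genes of thermogenesis only Ppargc1a was. The share over all genes tested was 11.2%, so lists this short would hold few calls in any case. The proteasome genes fell in both tissues where they changed, 6 of 23 in BAT and 11 in liver, against 11.9% and 9.34% of all genes. Ucp1, at rank 4 in fed BAT, had an effect of -0.09 ± 0.24 there (adjusted p = 0.819).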

How the data were processed

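Total RNA of interscapular brown adipose tissue and liver of male Wistar rats was hybridised as biotin-labelled cRNA, made from 2 µg total RNA, to Affymetrix rat arrays, per the labels' protocols. The deposited values are signal intensities that the authors computed with MAS5, per the submitters' processing notes; its version is not stated there. One intensity summarises the probe pairs of a probe set, so close paralogs can share signal and low values are noisy.

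Each array was scaled to a 2% trimmed mean of 118.6 (deposited trimmed means of the 16 arrays were 92.8 to 146), and log2(signal + 1.8) was used, 1.8 being the 10th percentile of all signals. Fold changes refer to these values and are too small for dim genes. Of 31099 probe sets, 57 controls were left out, 20826 of the rest had 1 gene symbol, 436 several and 9780 none, from the platform annotation with symbols updated through RefSeq. Each gene was represented by its brightest probe set, by mean log2 signal (4525 of 14217 genes have several), and genes above the 40th percentile of mean log2 signal were tested, which left 10442. limma 3.58.1 in R 4.3.3 (lmFit, contrasts.fit, eBayes with a mean-variance trend) fitted 4 group means. Each contrast was 2-sided with Benjamini-Hochberg adjustment over all genes tested, and a gene was called at an adjusted p under 0.05. Errors of effects are standard errors, other errors are SDs. The fit was tested on simulated data.

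Scan days come from the scanner's experiment files. Equal animal numbers in both tissues were taken to mark the same rat. Deviations from the group means correlated between same-numbered arrays by 0.0669 to 0.134, and for 7 of 8 animals best with their own number. The 4 arrays of a group limit the precision, and animals are the replicates.

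Members and gene lists were chosen with earlier results of these data known, and lists are described by counts with no test. Named were the 6 largest differences each way among genes called opposite ways and the 4 largest each way in the other kinds, apart from genes following the muscle markers, with a group mean of at least 100 and arrays that do not overlap in each tissue where the effect was called; then fixed fasting genes and the leading called genes of each list. Some results are not reported here. In all, 35 alternatives were run, 3 of them chosen after seeing the data: genes with a signal of 100 in both tissues, animal 5 left out, and a muscle slope for BAT alone. Promoters are RefSeq sequences, with a match found by gene symbol for 67 of the 83 genes called opposite ways.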

Additional observations from a re-analysis of the deposited data

Results flagged for a closer look

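Fasting effects in BAT and liver differed for 1170 genes by the interaction test. For the 12 genes named among those called opposite ways, the differences (BAT minus liver, log2) were 2.49 for Per2, 2.35 for Olr59, 2.19 for Snx21, 1.73 for Ddhd1, 1.71 for Tfb1m and 1.68 for Fdft1, and -3.68 for Acot4, -2.79 for Ifnar1, -2.41 for Cyb561, -2.37 for Deptor, -2.31 for Myo5b and -2.14 for Nat8l.

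In 6 of 180 gene and group pairs, over 45 genes, 1 array stood apart from the other 3, by its gap to the nearest of them relative to the group's range. Chance alone marks about 1 in 20 such groups. They are Myo5b at 2.17 in fasted BAT 10, Elovl6 at 1140 in fasted BAT 8, Dixdc1 at 31.1 in fasted BAT 9, Spc24 at 8.86 in fed BAT 5, Nat8l at 7.27 in fed liver 2 and Klf15 at 1575 in fed liver 4. All 6 genes kept the sign of their difference when that array was left out.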

How the results depend on the processing

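Of the 122 named genes with a called difference, 120 kept its sign under all 35 alternatives, and 43 kept the call in every alternative that tested them, among them Per2, Fasn, Srebf1, Cpt1a, Cyp2e1, Gadd45g, Igfbp1 and Deptor. Signs turned for Atp2a1 (-0.0678 with a muscle slope in BAT alone) and Myh4 (-0.79 with the muscle covariate and -0.86 with that slope), both muscle transcripts.

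The count of called differences (1170) was 221 with the muscle covariate and 205 with the slope in BAT alone, 479 with no scaling, 464 and 654 on scan days 1 and 2 alone, and 1873 with scan day as a block. For calls higher in BAT (608) these were 122, 110, 218, 220 and 359, with 392 among genes of signal 100 in both tissues. For calls lower in BAT (562) they were 99, 95, 261, 244, 295 and 981. The 83 genes called opposite ways became 8, 7, 14, 44, 44 and 172, and 53 with median centring. BAT calls (2486) were 325, 327, 1304 and 1515 under the first 4 settings, and liver calls (2017) were 769 with no scaling and 952 on scan day 2. The cause of these changes was not tested, though the single days hold fewer arrays.

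Leaving out 1 array gave 859 to 1095 calls, 444 to 566 higher and 415 to 529 lower, 62 to 86 opposite, 2050 to 2518 in BAT and 1646 to 2025 in liver. With the animal number as a replicate block there were 1182 calls, 1019 of them among the 1170. The block ended the call for 4 named genes, Alb (adjusted p = 0.0608), Gpx1 (0.0512), Igfbp2 (0.0836) and Sdha (0.0541), and gave one to 6 named genes not called without it, Abcg5 (0.0424), Cyp7a1 (0.0418), Pc (0.0356), Slc16a7 (0.0392), Apoh (0.0445) and Apoa4 (0.0259). Dim signals and 4 arrays per group limit the precision. Muscle RNA was high in all fasted BAT samples and in fed BAT 5, and low in the other fed BAT samples. This limits what can be said of fasting effects in BAT, and not of muscle-expressed genes alone.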
